A study of Mus musculus with 6 samples.

Results

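Astrocyte genes are described here as a list of 32 genes, chosen by name as astrocyte-enriched genes, with no use of measured values. All 32 were among the 56923 genes listed in the count tables, and all 32 passed the filter on low counts that left 19084 genes for testing. The list was assembled with earlier results of these data known.

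The study asked what the loss of *Pla2g4e*, which encodes a calcium-dependent N-acyltransferase of membrane phospholipids, does to the mouse brain. PolyA RNA of the prefrontal cortex was sequenced in 3 libraries labelled Pla2g4e KO and 3 libraries labelled WT. The constitutive knockout carries the Pla2g4e tm2a allele on a C57BL/6N-A tm1Brd background, where a LacZ trap captures splicing and should leave no functional product. No cell type was targeted. The labels give neither age, sex nor litter, and do not say that the libraries come from separate animals, so the p-values below measure only the spread between these libraries.

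Astrocytes are the glial cells that clear glutamate and GABA from the synaptic cleft, turn glutamate into glutamine for return to neurons, buffer potassium and water at their end-feet on blood vessels, and share ions and metabolites through gap junctions. They store the glycogen of the brain and run much of its glycolysis. After injury or stress many of them become reactive, a state whose best known sign is a rise of the intermediate filament protein GFAP.

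The values are fragments counted per gene, scaled to the library size by TMM and expressed as CPM, the count that would fall in 1e+06 fragments. Library totals lay between 11792463 and 14594230 fragments, and the members had between 61 fragments (*Ppp1r3g*) and 48237 fragments (*Slc1a2*) in a library. Counting error was small for most of them but not for the rarest, such as *Ppp1r3g*, *Hes5*, *Slc14a1*, *Gli3*, *Plcd4* and *Cldn10*. *Slc17a7*, the vesicular glutamate transporter of cortical excitatory neurons, was at 1161 to 1628 CPM in the 6 libraries. Differences are log2 fold changes of KO over WT from limma-voom, two-sided, with Benjamini-Hochberg adjustment over all 19084 genes.

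*Pla2g4e* (ENSMUSG00000050211.15; GRCm39 chromosome 2, 119996893 to 120075816) was at 5.95, 8.12 and 7.97 CPM in the libraries labelled KO replicates 1 to 3 and at 7.84, 11.3 and 13.2 CPM in those labelled WT replicates 1 to 3. The groups overlapped, since the value of the library labelled WT replicate 1 fell between those of the KO libraries. The log2 fold change was -0.55 (SE 0.21; unadjusted p = 0.0205, adjusted p = 0.635 in limma-voom). The counts sum over all exons, and counts by exon were not used here, so the targeted exon was not checked on its own. The paper reports that knockout mice had no Pla2g4e protein by Western blot of hippocampus and no specific immunostaining in brain sections. Those are measures of protein, not of RNA in these libraries.

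Libraries of the same label differed in another way. The library of KO replicate 1 and that labelled WT replicate 1 had *Xist* at 1387 and 969 CPM and almost no Y-linked transcripts, whereas the other 4 libraries had *Xist* at no more than 0.246 CPM and clear Y-linked expression. Each group thus held 1 library without and 2 with Y-linked expression, and several results, but not all, are given with and without the former. KO replicate 1 stood furthest apart by its counts over all genes. Its chi-square per degree of freedom was 7.88 to 14.7 against each other library. The library labelled WT replicate 1 was at 6.4 to 8.19 against the remaining libraries, which were at 2.79 to 6.84 among themselves. Markers of neighbouring tissue also varied, since the summed level of 8 markers of the olfactory bulb (among them *Eomes*, *Tbx21* and *Th*, with 1 at 0 in a library) was 789 CPM in KO replicate 1 and 272 to 427 CPM in the others. Of 10 striatal neuron markers, 1 was at 0 in a library and 9 passed the filter. The sum of these 9 was 341 to 448 CPM in KO and 255 to 426 CPM in WT. For 8 leptomeningeal markers the sum was 383 CPM in WT replicate 2 and 648 to 745 CPM in the others. Their part in the results below was not tested beyond the fits named.

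Differences of the astrocyte genes between KO and WT were small against the spread of the libraries. None of the 32 had an adjusted p-value under 0.05 (lowest 0.635), as for 0% of all genes tested. By limma-voom 1492 of all genes had an unadjusted p-value under 0.05, and edgeR's quasi-likelihood test and DESeq2 called 0 and 1 genes after adjustment. *Slc4a4*, *Acsbg1* and *Plcd4* had an unadjusted p-value under 0.05, all with higher values in KO (3 of 32, against 4.38% of all genes), and no member had one with lower values (0 of 32, against 3.44%). *Plcd4* alone had groups that did not overlap (1 of 32 higher in KO and 0 lower, against 6.72% and 6.29% of all genes).

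The fold changes lay mostly on one side of 0. Log2 fold changes were above 0 for 28 of 32 members, against 51.9% of all genes, and the median was 0.06 against 0.01 over all genes. With RLE scaling 28 were above 0 and with library totals alone 30. The tilt depended on which libraries were included. Without KO replicate 1 the count was 17 of 32, with a median of 0.01, and without WT replicate 2 it was also 17 of 32, with a median of 0.01. Without the libraries of KO replicate 1 and labelled WT replicate 1 together it was 29 of 32, with a median of 0.08. KO replicate 1 had the highest sum of olfactory bulb markers. WT replicate 2 had the lowest sum of leptomeningeal markers and the highest of choroid plexus markers. KO replicate 1 and WT replicate 2 also had the highest and the lowest share of mitochondrial fragments (7.41% and 6.13%). WT replicate 3 was almost as high, at 7.39%. The part of these in the tilt was not tested. For 24 of the 32 genes the 95% confidence interval lay within 0.5 log2 units on either side of 0, and for 31, all but *Gfap*, within 1 unit. In bulk tissue, fewer or more astrocytes and less or more RNA per astrocyte cannot be told apart.

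**Figure D1:**
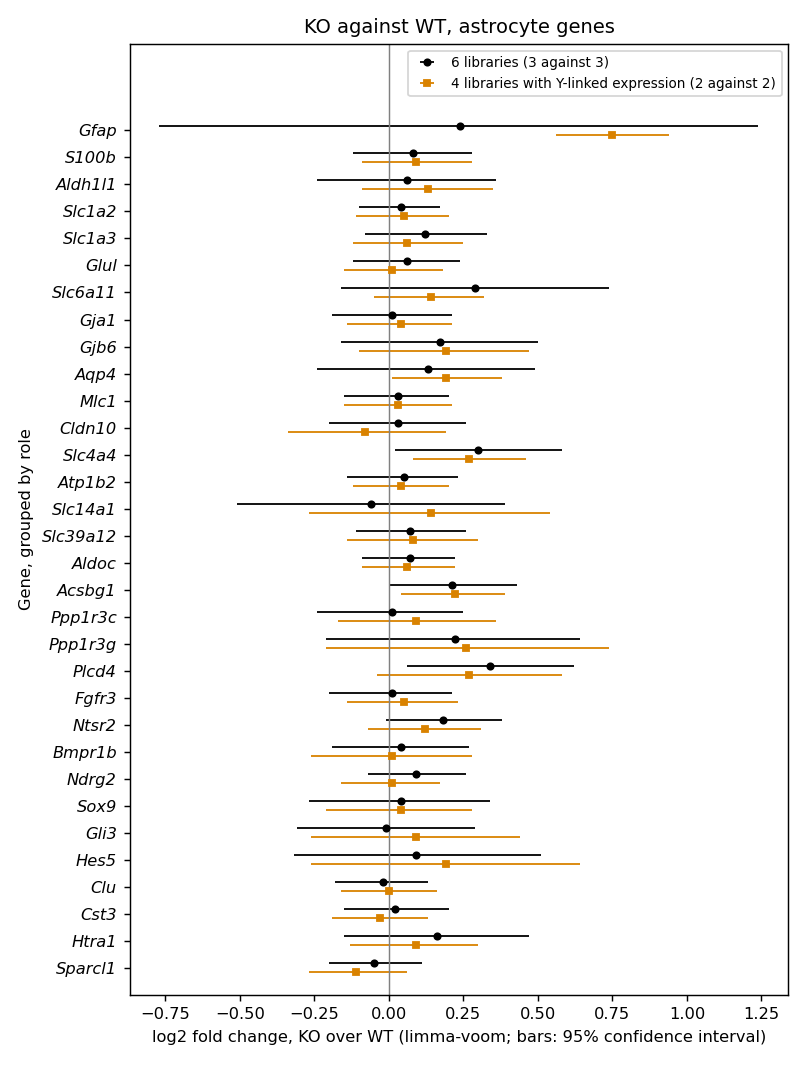
Log2 fold change of KO over WT (x axis, log2 units) for each of the 32 astrocyte genes (y axis, grouped by role), with 95% confidence intervals from limma-voom, in all 6 libraries (black circles) and in the 4 libraries with Y-linked expression (orange squares). Most circles sit between 0 and 0.3, and *Gfap* has by far the widest interval with 6 libraries (-0.77 to 1.24) and lies above 0 with 4 (0.56 to 0.94).

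Of the proteins by which astrocytes are most often recognised, *Gfap*, the intermediate filament protein (ENSMUSG00000020932.15; chromosome 11, 102778162 to 102791738, minus strand), varied most. Its level was 189, 118 and 109 CPM in KO replicates 1 to 3 and 329, 62.3 and 72.6 CPM in WT replicates 1 to 3. The highest value of all and the 2 lowest were in WT, and the KO values lay between them. Group means were 138 ± 43.9 CPM for KO against 155 ± 151 CPM for WT (SD, n = 3 each). The log2 fold change was 0.24 (SE 0.46; unadjusted p = 0.617, adjusted p = 0.901 in limma-voom), while edgeR's quasi-likelihood test and DESeq2 both gave -0.16, and leaving out the library labelled WT replicate 1 gave 1.0. The ratio of the highest to the lowest library was 5.28, at percentile 99.7 among the 11945 genes with a mean of at least 5 CPM.

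Both libraries without Y-linked expression were the highest of their group for *Gfap*. In the 4 others, a comparison chosen after the values were seen, the means were 113 CPM for KO against 67.5 CPM for WT, with no overlap (2 libraries each). There the log2 fold change was 0.75 (SE 0.09, 95% confidence interval 0.56 to 0.94; unadjusted p = 9.78e-08, adjusted p = 0.00181 in limma-voom over 18476 genes). *Gfap* was 1 of 3 genes past the adjusted threshold in that fit, with *Eps8l1* (adjusted p = 0.0253) and *Col6a4* (adjusted p = 0.0118). Over all alternatives its adjusted p ranged from 0.00181 to 0.999. With 2 libraries a group the spread is estimated largely from other genes, and the 4 libraries were selected by a feature that also separates the *Gfap* values.

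**Figure D2:**
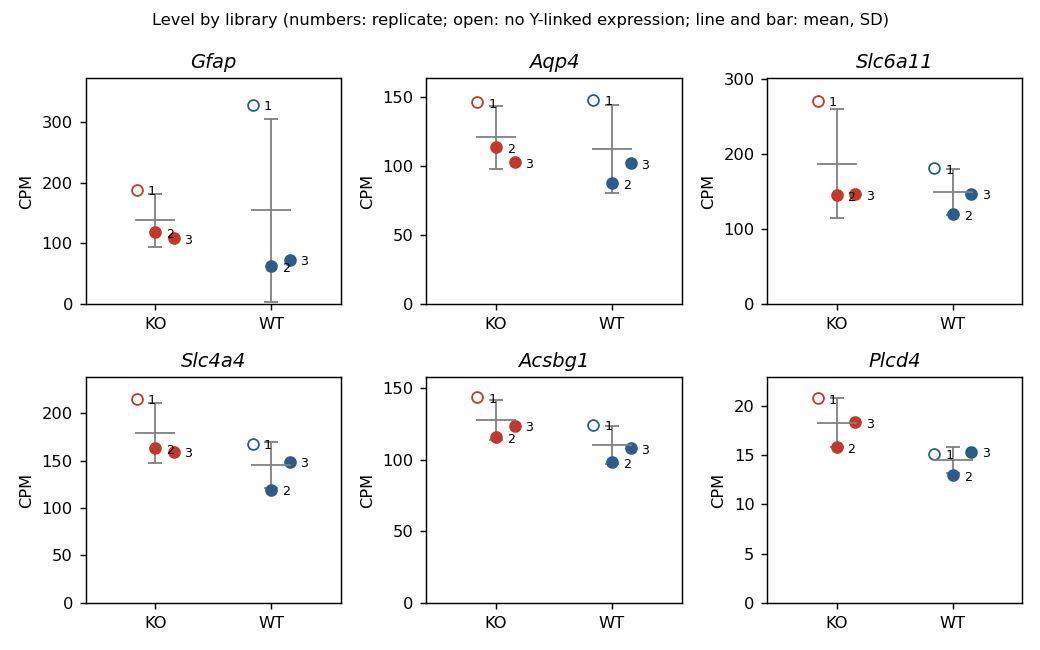
CPM (y axis, from 0) by group (x axis) for 6 astrocyte genes, 1 point a library with its replicate number, open points for the libraries without Y-linked expression, and grey lines and bars for the mean and SD (n = 3). For *Gfap* the open WT point (329 CPM) stands far above the other WT points (62.3 and 72.6 CPM), and for *Plcd4* all KO points (15.8 to 20.8 CPM) lie above all WT points (12.9 to 15.3 CPM).

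*S100b*, a calcium-binding protein (chromosome 10, 76089687 to 76096993), was at 101, 89.2 and 89.0 CPM for KO against 97.7, 76.6 and 90.7 CPM for WT. *Aldh1l1*, the folate enzyme used as a pan-astrocyte marker (chromosome 6, 90463409 to 90577185), was at 68.5, 55.3 and 56.9 CPM for KO against 72.8, 57.5 and 45.9 CPM for WT. Both sets of values overlapped, and the log2 fold changes were 0.08 (SE 0.09) and 0.06 (SE 0.14).

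The transporters and the enzyme that handle glutamate were nearly level between the groups. *Slc1a2*, which encodes GLT-1, the main glutamate transporter of the forebrain (chromosome 2, 102489004 to 102621129), was at 3260, 3140 and 3455 CPM for KO against 3207, 3018 and 3375 CPM for WT. It was the steadiest member, with the highest library only 1.14 times the lowest, and a log2 fold change of 0.04 (SE 0.06, 95% confidence interval -0.10 to 0.17). *Slc1a3*, encoding GLAST, the other astrocytic glutamate transporter (chromosome 15, 8663608 to 8740248), was at 629, 502 and 551 CPM for KO against 532, 453 and 559 CPM for WT (log2 fold change 0.12, SE 0.09). Per exon length, the level of *Slc1a2* was 3.37 to 4.33 times that of *Slc1a3* within a library, with the lowest ratio in KO replicate 1. *Glul*, glutamine synthetase, which turns glutamate into glutamine (chromosome 1, 153775690 to 153785469), was at 1736, 1355 and 1587 CPM for KO against 1559, 1413 and 1490 CPM for WT (0.06, SE 0.08). The KO libraries of *Glul* enclosed the whole range of the WT libraries.

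*Slc6a11*, encoding the GABA transporter GAT-3, stood apart from these by its spread. It was at 271, 145 and 146 CPM for KO against 181, 119 and 146 CPM for WT, and KO replicate 1 stood far above the other 5 libraries. Its log2 fold change was 0.29 (SE 0.21; unadjusted p = 0.188, adjusted p = 0.709 in limma-voom) and became -0.01 without that library, and 0.14 among the 4 libraries with Y-linked expression. *Slc6a11* and *Gfap* were the 2 members whose highest library was more than 2 times the lowest.

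The genes of gap junctions, end-feet and adhesion showed small differences. *Gja1*, connexin 43 (chromosome 10, 56253426 to 56278609), was at 182, 149 and 173 CPM for KO against 188, 152 and 161 CPM for WT (log2 fold change 0.01, SE 0.09, 95% confidence interval -0.19 to 0.21). *Gjb6*, connexin 30, which forms gap junctions with it, ranged from 41.0 to 62.0 CPM in KO and from 40.7 to 56.8 CPM in WT (0.17, SE 0.15), and the ratio of *Gja1* to *Gjb6* per exon length was 0.745 to 1.03 in the 6 libraries. *Aqp4*, the water channel of the end-feet (chromosome 18, 15522553 to 15544039), was at 146, 114 and 103 CPM for KO against 148, 87.4 and 102 CPM for WT (0.13, SE 0.17).

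For *Aqp4* replicate 1 was the highest in each group, at almost the same level in both. Among the 4 libraries with Y-linked expression the *Aqp4* groups did not overlap (mean 108 CPM for KO against 94.7 CPM for WT; log2 fold change 0.19, unadjusted p = 0.0445, adjusted p = 0.999 in limma-voom). *Mlc1*, a membrane protein of the end-feet, was at 113 ± 8.82 CPM for KO against 111 ± 9.35 CPM for WT (0.03), and *Cldn10*, a claudin, at 21.5 ± 2.62 and 21.1 ± 0.165 CPM (0.03; SD, n = 3 each).

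Of the other transporters, *Slc4a4*, the sodium bicarbonate cotransporter that astrocytes use to regulate pH (ENSMUSG00000060961.17; chromosome 5, 89034345 to 89387512, plus strand), had the second largest fold change of the list. It was at 215, 163 and 159 CPM for KO against 168, 120 and 149 CPM for WT. The library labelled WT replicate 1 lay above 2 of the KO libraries, so the groups overlapped. The log2 fold change was 0.30 (SE 0.13, 95% confidence interval 0.02 to 0.58; unadjusted p = 0.0356, adjusted p = 0.635 in limma-voom). It fell to 0.16 without KO replicate 1 and 0.17 without WT replicate 2, where the unadjusted p was 0.160 and 0.188, and stayed at 0.27 among the 4 libraries with Y-linked expression.

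*Atp1b2*, the beta subunit of the sodium pump found in glia, was at 418 ± 42.7 CPM for KO against 405 ± 37.9 CPM for WT (log2 fold change 0.05). *Slc39a12*, a zinc transporter, was at 37.4 ± 1.79 and 35.6 ± 2.1 CPM (0.07). *Slc14a1*, a urea transporter, was at 8.51 ± 0.811 and 9.22 ± 3.22 CPM (-0.06; SD, n = 3 each), where the library labelled WT replicate 1 had 12.9 CPM and the other 5 had 7.12 to 9.33 CPM.

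The 5 genes of metabolism had the highest median log2 fold change among the role groups (0.21). Of these 5, 2 had an unadjusted p-value under 0.05, both with higher values in KO, against 4.38% of all genes. The grouping counts *Plcd4*, which could also stand under signalling, with metabolism. *Plcd4*, a phospholipase C that releases inositol trisphosphate (ENSMUSG00000026173.16; chromosome 1, 74582047 to 74606953, plus strand), was at 20.8, 15.8 and 18.3 CPM for KO against 15.1, 12.9 and 15.3 CPM for WT. Every KO library lay above every WT library, although the lowest KO and highest WT values were close. These rested on 188 fragments in KO replicate 2 and 195 in WT replicate 3, counts at which counting error matters for so small a gap. The log2 fold change was 0.34 (SE 0.13, 95% confidence interval 0.06 to 0.62; unadjusted p = 0.0213, adjusted p = 0.635 in limma-voom). Across the alternatives it ranged from 0.24 to 0.43, and the unadjusted p-value was under 0.05 in 13 of 16. The unadjusted p was 0.105 without KO replicate 1, 0.0888 without WT replicate 2 and 0.0877 with the 4 libraries with Y-linked expression.

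*Acsbg1*, a long-chain acyl-CoA synthetase that activates fatty acids (ENSMUSG00000032281.12; chromosome 9, 54512161 to 54569154, minus strand), was at 144, 116 and 124 CPM for KO against 124, 98.3 and 108 CPM for WT. The library labelled WT replicate 1 (124.5 CPM) lay above KO replicate 2 and slightly above KO replicate 3 (123.9 CPM), so the groups overlapped. The log2 fold change was 0.21 (SE 0.10; unadjusted p = 0.0480, adjusted p = 0.636 in limma-voom), and 0.13 without KO replicate 1 (unadjusted p = 0.199) or 0.14 without WT replicate 2 (unadjusted p = 0.211). The unadjusted p-value was under 0.05 in 9 of 16 alternatives. It was 0.0505 with DESeq2, and in limma-voom 0.0528 with RLE scaling and 0.06 with the filter of edgeR's filterByExpr.

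*Aldoc*, the brain aldolase of glycolysis (chromosome 11, 78213794 to 78218607), was at 712, 613 and 678 CPM for KO against 679, 604 and 629 CPM for WT (log2 fold change 0.07, SE 0.07). Its groups overlapped. The 2 subunits that target protein phosphatase 1 to glycogen gave 0.01 for *Ppp1r3c* (32.2 ± 1.17 CPM for KO, 32.2 ± 5.19 CPM for WT) and 0.22 for *Ppp1r3g* (7.19 ± 0.984 and 6.31 ± 1.40 CPM; SD, n = 3 each), with standard errors of 0.11 and 0.19.

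The 250 bases before the start site are shown for *Gfap*, the member with the widest spread, and for *Acsbg1* and *Plcd4*, 2 of the 3 members with an unadjusted p-value under 0.05 (the other, *Slc4a4*, had no match to the motifs below). They come from RefSeq on GRCm38.p6, an older build than the GRCm39 of the counts, so the positions below are not comparable with the gene positions above. Each is written 5′ to 3′ in the direction of the gene and ends at the base before the start. Capitals mark a match on either strand to 1 of 4 motifs: TTCNNNGAA (STAT factors, which drive astrocyte differentiation), TTGGCA (a half-site of NFI factors), ACAAAG (SOX factors) and TATAAA (the TATA box). No match of 1 motif overlapped that of another in these 3 sequences.

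*Gfap*, chr11:102897201-102897450, minus strand: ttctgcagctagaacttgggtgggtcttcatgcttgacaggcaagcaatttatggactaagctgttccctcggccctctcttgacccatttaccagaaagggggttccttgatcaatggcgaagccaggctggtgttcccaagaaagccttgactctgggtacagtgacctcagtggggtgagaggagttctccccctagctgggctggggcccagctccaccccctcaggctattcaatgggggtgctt
*Acsbg1*, chr9:54661886-54662135, minus strand: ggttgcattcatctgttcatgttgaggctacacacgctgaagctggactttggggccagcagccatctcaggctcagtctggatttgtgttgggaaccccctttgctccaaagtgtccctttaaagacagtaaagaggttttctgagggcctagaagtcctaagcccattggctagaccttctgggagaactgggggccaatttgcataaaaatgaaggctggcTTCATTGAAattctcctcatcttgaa
*Plcd4*, chr1:74544110-74544359, plus strand: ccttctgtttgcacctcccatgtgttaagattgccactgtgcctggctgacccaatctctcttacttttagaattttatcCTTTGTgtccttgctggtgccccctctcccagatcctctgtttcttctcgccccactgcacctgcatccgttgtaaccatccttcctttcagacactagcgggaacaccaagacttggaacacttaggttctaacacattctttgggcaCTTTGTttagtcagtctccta

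The *Acsbg1* window held a STAT match whose first base is at position -26, and the *Plcd4* window held SOX matches at -170 and -21, counted back from -1 at the base before the start. *Plcd4* has another start in the same table, without a match, and the *Gfap* window held none of the 4 motifs. A promoter was found by symbol for 26 of the 32 members, with 35 promoters in all. The STAT motif was in 4 of these 35 (*Acsbg1*, *Aldoc*, *Ntsr2* and *Slc1a3*) and in 7.02% of all 32851 mouse promoters in the table. The NFI half-site was in 2 of 35 against 12.3%, the SOX motif in 6 of 35 against 16.5%, and the TATA box in 4 of 35 against 12.4%. The SOX matches came from 4 members, and overlapping windows of *Bmpr1b* count the same site more than once. A match of letters describes the sequence and is not a binding site.

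Receptors and signalling genes came next. *Ntsr2*, a neurotensin receptor of astrocytes, was at 122, 95.8 and 115 CPM for KO against 98.7, 93.2 and 100 CPM for WT, with KO replicate 2 inside the WT range (log2 fold change 0.18, SE 0.09; unadjusted p = 0.0581, adjusted p = 0.637 in limma-voom). *Ndrg2*, a cytoplasmic protein abundant in astrocytes, was at 592 ± 60.5 CPM for KO against 553 ± 18.1 CPM for WT (0.09). *Bmpr1b*, a BMP receptor, was at 27.8 ± 0.796 and 27.2 ± 3.76 CPM (0.04), and *Fgfr3*, an FGF receptor, at 108 ± 11.6 and 108 ± 12 CPM (0.01; SD, n = 3 each).

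The transcription factors had another pattern over the libraries. *Sox9*, which establishes and maintains the glial fate (chromosome 11, 112673050 to 112678586), was at 26.0, 34.8 and 32.6 CPM for KO against 24.9, 29.3 and 36.6 CPM for WT, so that replicate 1 was the lowest of each group. Its log2 fold change was 0.04 (SE 0.14). *Hes5*, a Notch target, had its highest value in KO replicate 2 (10.6 CPM, against 6.63 to 8.95 CPM in the other 5; log2 fold change 0.09), and *Gli3*, a mediator of hedgehog signalling, was at 11.8 ± 1.26 CPM for KO against 11.7 ± 1.36 CPM for WT (-0.01; SD, n = 3 each).

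Of the 4 secreted proteins, 3 were abundant and nearly level between the groups. *Clu* (clusterin) gave a log2 fold change of -0.02, *Cst3* (cystatin C, a protease inhibitor) 0.02 and *Sparcl1* (hevin, a synapse-promoting matrix protein) -0.05, each with a standard error of 0.07 or 0.08. *Clu* was at 557 ± 38.6 CPM for KO against 566 ± 38.2 CPM for WT, *Cst3* at 620 ± 67.1 and 609 ± 36.5 CPM, and *Sparcl1* at 1572 ± 145 and 1619 ± 49.8 CPM. *Htra1*, a serine protease, was wider, at 152, 93.0 and 122 CPM for KO against 122, 98.4 and 103 CPM for WT (0.16, SE 0.14), where KO held both the highest and the lowest library.

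**Figure D3:**
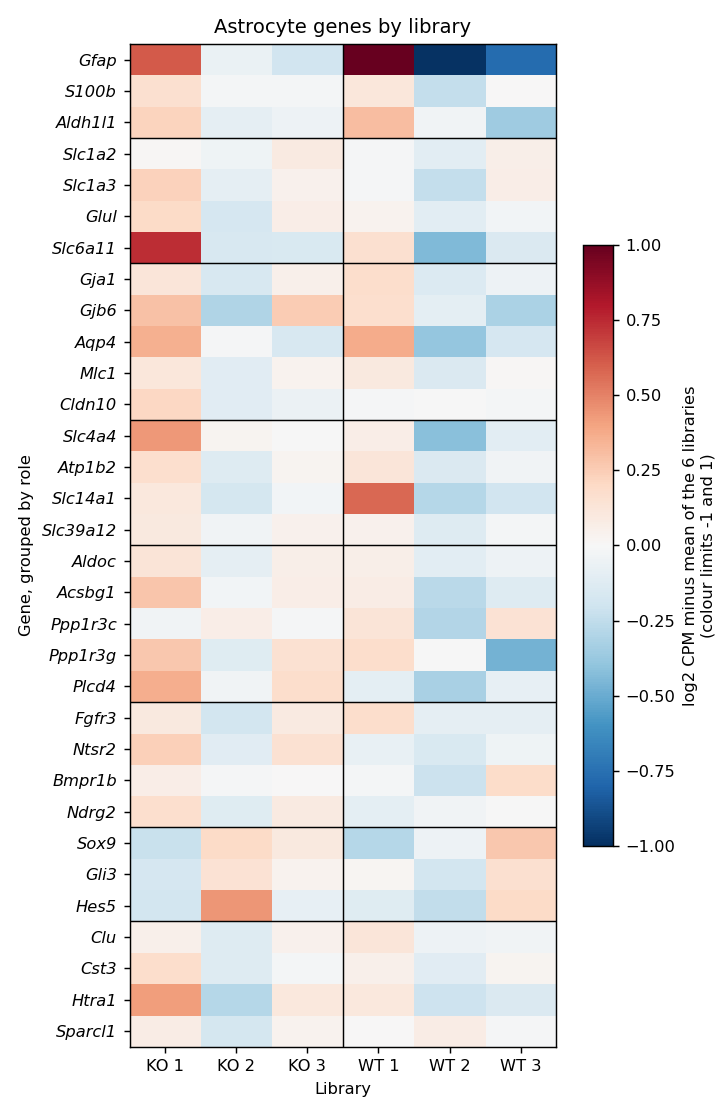
Colour shows, for each astrocyte gene (rows, by role) and each library (columns), the log2 CPM minus the gene's mean over the 6 libraries, in log2 units with the colours limited to -1 and 1. KO replicate 1 is the highest library for 19 of the 32 genes and WT replicate 2 the lowest for 19, and the 3 transcription factors run against most other genes in KO replicate 1.

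Many members were high or low in the same libraries. KO replicate 1 was the highest of all 6 libraries for 19 of 32 members (22.1% of all genes), and WT replicate 2 was the lowest for 19 (18.9% of all genes). The mean deviation of the members from their 6-library mean, in log2 units, stood at 0.18, -0.07 and 0.03 for KO replicates 1 to 3 and at 0.12, -0.19 and -0.07 for WT replicates 1 to 3. Both libraries without Y-linked expression were above all 4 others for 16 members, against 8.26% of all genes. These 16 were *Gfap*, *Aqp4*, *Aldh1l1*, *Gja1*, *Aldoc*, *Fgfr3*, *S100b*, *Slc4a4*, *Atp1b2*, *Acsbg1*, *Mlc1*, *Clu*, *Cst3*, *Slc6a11*, *Slc14a1* and *Ppp1r3g*. With 1 such library in each group, this cannot be told apart from a difference between single libraries.

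Without these libraries, 29 of 32 members were above 0 (median 0.08), and the unadjusted p-value was under 0.05, with higher values in KO, for *Gfap*, *Aqp4*, *Slc4a4* and *Acsbg1*, against 2.36% of all genes. Groups did not overlap for 6 members higher in KO (those 4, *Slc14a1* and *Plcd4*), against 16.4% of all genes, and for *Cldn10*, which was lower, against 15.6%. With Y-linked expression as a covariate in the 6 libraries, 28 members were above 0 and 5 had an unadjusted p-value under 0.05 (*Slc4a4*, *Ntsr2*, *Acsbg1*, *Slc6a11* and *Plcd4*), all with higher values in KO, against 5.95% of all genes in that fit. With the summed striatal markers as a covariate 27 were above 0 and 4 had such a p-value (*Gjb6*, *Acsbg1*, *Ppp1r3g* and *Plcd4*), against 50.3% and 2.54% of all genes.

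On the FPKM scale (CPM per kilobase of exon, with the exon lengths of the count tables), the levels of the members covered more than 2 orders of magnitude. *Sparcl1* (543 ± 34.2 FPKM), *Cst3* (486 ± 38.4), *Glul* (403 ± 35.8) and *Slc1a2* (247 ± 12) led, and *Plcd4* (2.32 ± 0.390), *Slc14a1* (2.22 ± 0.535) and *Gli3* (1.22 ± 0.122; SD, n = 6) closed the order. Of the 31 pairs of neighbours, 9 had ranges over the 6 libraries that did not overlap, among them *Glul* above *Slc1a2*, *Slc1a2* above *Aldoc* and *Slc14a1* above *Gli3*, and the ranges of the other neighbours overlapped. *Gfap* was at place 13 by its mean (34.8 ± 23.7 FPKM), with a range of 14.8 to 78.0 FPKM. The median ratio of the highest to the lowest library was 1.32 for the members and 1.25 for the 11945 genes with a mean of at least 5 CPM.

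**Figure D4:**
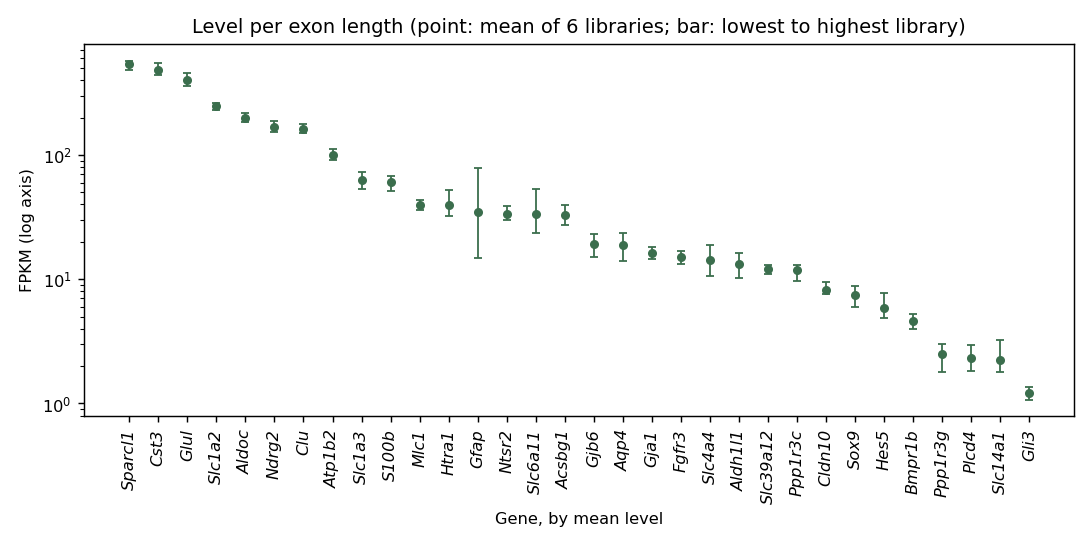
Level per exon length of the 32 astrocyte genes (y axis, FPKM on a log axis; x axis, genes by mean level), as the mean of 6 libraries with a bar from the lowest to the highest library. Levels run from 543 FPKM (*Sparcl1*) to 1.22 FPKM (*Gli3*), and the bar of *Gfap* (14.8 to 78.0 FPKM) is the longest.

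A further 60 astrocyte genes that are not members were counted as context. All 60 were tested, and 46 were above 0, against 51.9% of all genes (median log2 fold change 0.09). Their mean deviation from the 6-library mean, in log2 units, was 0.24, -0.09 and 0.04 for KO replicates 1 to 3. For WT replicates 1 to 3 it was 0.05, -0.19 and -0.05. Whether this list keeps its tilt without KO replicate 1 or WT replicate 2 was not tested. Of the 60, 7 had an unadjusted p-value under 0.05 with higher values in KO (4.38% of all genes) and none with lower (3.44%). In 5 the KO libraries lay above all WT libraries (6.72% of all genes), and in 1 below (6.29%). *Grin2c*, the NMDA receptor subunit that cortical astrocytes express, was at 76.7, 65.2 and 63.8 CPM for KO against 55.0, 48.0 and 54.6 CPM for WT (log2 fold change 0.38, SE 0.09; unadjusted p = 0.00108, adjusted p = 0.635 in limma-voom). *Phkg1*, the catalytic subunit of phosphorylase kinase, which starts glycogen breakdown, was at 21.9, 22.3 and 22.3 CPM for KO against 16.8, 16.2 and 17.8 CPM for WT (0.39, SE 0.10; unadjusted p = 0.00156). All 3 KO libraries lay above all WT libraries for both genes.

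*Slc27a1*, a fatty acid transporter, was at 114, 97.5 and 103 CPM for KO against 91.4, 84.8 and 87.4 CPM for WT (log2 fold change 0.25, SE 0.08; unadjusted p = 0.00523 in limma-voom). These 3 genes had an unadjusted p-value under 0.05 in all 16 alternatives, and none had an adjusted one. For *Agt*, angiotensinogen, KO replicate 1 was at 8.65 CPM and the other KO libraries at 4.27 and 4.30 CPM, against 2.51, 4.01 and 2.90 CPM in WT (0.85, SE 0.31; unadjusted p = 0.0181). *Paqr6*, a progestin receptor family member, was at 6.35, 3.35 and 2.89 CPM for KO against 1.96, 2.54 and 2.28 CPM for WT (0.84, SE 0.32; unadjusted p = 0.0224). Without KO replicate 1 the log2 fold change was 0.48 for *Agt* (unadjusted p = 0.0851 in limma-voom) and 0.46 for *Paqr6* (unadjusted p = 0.117 in limma-voom), and among the 4 libraries with Y-linked expression 0.33 and 0.37 (unadjusted p = 0.244 and 0.256). The adjusted p with 6 libraries was 0.635 for each of these 5 genes. *S1pr1* was lower in KO without overlap, at 129, 136 and 136 CPM for KO against 150, 142 and 147.5 CPM for WT. Its log2 fold change was -0.13 (SE 0.06; unadjusted p = 0.0519, adjusted p = 0.636 in limma-voom).

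Genes of astrocyte reactivity gave no common direction. Of 35, 33 were tested, and 14 were above 0 and 19 below (median -0.03). The unadjusted p-value was under 0.05 for 2 with higher and 1 with lower values in KO, shares near the 4.38% and 3.44% of all genes. In 4 the KO libraries lay above all WT libraries and in none below, against 6.72% and 6.29% of all genes, and 4 genes were at 0 in a library. *Clcf1*, a cytokine of the IL-6 family, was at 2.57, 1.84 and 2.19 CPM for KO against 1.25, 0.900 and 1.80 CPM for WT (log2 fold change 0.77, SE 0.32; unadjusted p = 0.0337 in limma-voom). The difference was 0.64 without KO replicate 1 (unadjusted p = 0.104) and 0.63 among the 4 libraries with Y-linked expression (unadjusted p = 0.155). *Cxcl10*, an interferon-induced chemokine, gave only 7, 5 and 3 fragments for KO against 1, 0 and 2 for WT, too few for a firm value. *Hspb1* was lower in KO, at 2.77, 3.18 and 3.98 CPM against 6.04, 4.75 and 3.69 CPM for WT, with overlap. Its log2 fold change was -0.54 (SE 0.24; unadjusted p = 0.0441, adjusted p = 0.635 in limma-voom). *Vim* and *Serpina3n*, which often rise with *Gfap* and were chosen here after their values were seen, were at 42.9, 27.4 and 31.9 CPM and at 17.8, 13.4 and 13.7 CPM in KO, and at 53.6, 25.3 and 29.6 CPM and at 27.8, 17 and 12.6 CPM in WT. For these genes, as for *Gfap*, the highest of all 6 was the library labelled WT replicate 1. It was the highest for 9 of the 33 tested genes of this list (18.8% of all genes). KO replicate 1 was the highest for 10 (22.1% of all genes) and WT replicate 3 for 8 (13.8%).

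**Figure D5:**
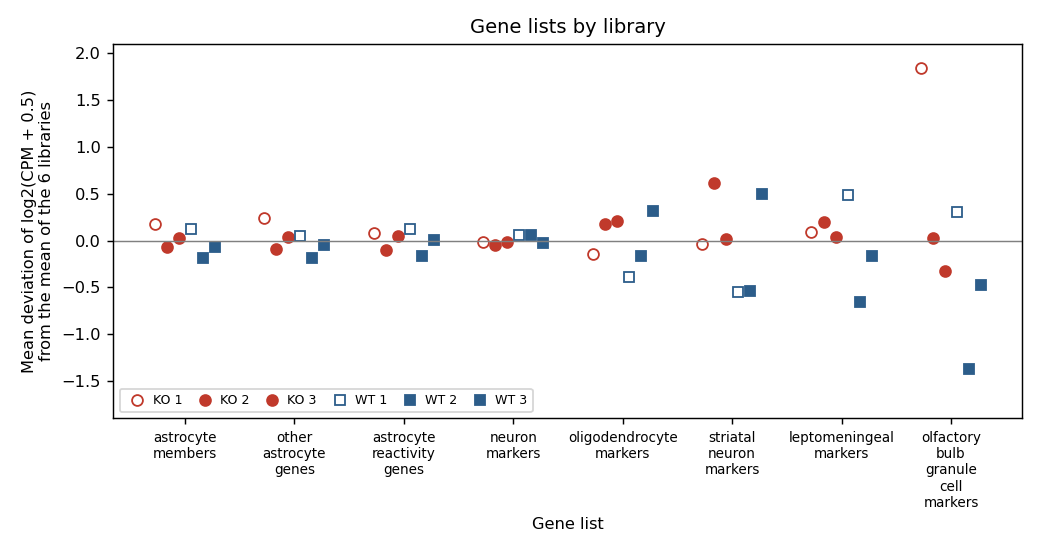
Mean deviation of log2(CPM + 0.5) from the 6-library mean (y axis, log2 units) for 8 gene lists (x axis), with KO replicates 1 to 3 (red circles) and WT replicates 1 to 3 (blue squares) from left to right and open symbols for the libraries without Y-linked expression. Astrocyte genes stay between -0.19 and 0.18, whereas olfactory bulb, striatal and leptomeningeal markers spread far more widely between libraries.

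Lists of other cell types differed in balance. Of 12 neuron markers 9 were below 0 (median log2 fold change -0.13, 2 with an unadjusted p-value under 0.05 and lower values, against 3.44% of all genes), and of 12 oligodendrocyte markers 11 were above 0 (median 0.14, none with such a p-value). The medians were 0.12 for mural cell markers (5 of 8 above 0), 0.01 for oligodendrocyte precursor markers (4 of 8), -0.02 for microglia markers (5 of 12), -0.04 for endothelial markers (4 of 12), 0.03 for choroid plexus markers (4 of 7) and -0.02 for ependymal markers (3 of 7). Of these, 2 of the mural cell markers had an unadjusted p-value under 0.05 with higher values in KO (4.38% of all genes) and 1 of the microglia markers with lower values. The 7 choroid plexus markers tested summed to 37 CPM in WT replicate 2 and to 7.79 to 16.7 CPM in the other libraries. *Ttr* among them was lower in KO without overlap (log2 fold change -3.22, SE 1.55). The olfactory bulb, striatal and leptomeningeal lists leaned furthest to KO. All 8 olfactory bulb markers were above 0 (median 1.15, 2 with an unadjusted p-value under 0.05), as were all 9 striatal markers tested (median 0.28, 1 with such a p-value) and 7 of 8 leptomeningeal markers (median 0.25, 1 with such a p-value), all those called with higher values in KO. The part of this in the tilt of the astrocyte genes (28 of 32 above 0, median 0.06) was not tested for the olfactory bulb, leptomeningeal and choroid plexus markers. With the striatal sum as a covariate 27 of 32 astrocyte genes were above 0. The summed level of 12 neuron markers was 12304 to 13284 CPM in KO and 12972 to 14012 CPM in WT, and that of 12 oligodendrocyte markers 2317 to 2708 and 1819 to 3000 CPM, with none of either list at 0. The sum of the 32 astrocyte genes was 12485, 10572 and 11797 CPM for KO against 11831, 10591 and 11315 CPM for WT. The groups overlapped for all 3 sums, and for the astrocyte genes the highest library (KO replicate 1) and the lowest (KO replicate 2) were both KO.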

How the data were processed

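RNA-seq libraries were made from polyA RNA of prefrontal cortex with a stranded kit (TruSeq Stranded mRNA). The authors deposited raw counts of fragments per gene, 1 table a library, made per the file headers with featureCounts 1.6.0 on GRCm39 with the GENCODE M31 annotation and strand taken into account, after alignment with STAR 2.7.9a. The other column used, exon length in bases, is also as deposited. Of 56923 genes listed, 52073 were matched to a symbol.

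Genes with fewer than 6 fragments in every library were dropped, as in the study's methods. Counts were scaled by TMM (edgeR 4.0.16) and tested with limma-voom (limma 3.58.1, R 4.3.3; voom prior count 0.5), 3 KO against 3 WT libraries without covariates, with an adjusted threshold of 0.05. CPM and FPKM were computed here. The fit was tested on simulated data. Alternatives were edgeR's quasi-likelihood test, DESeq2 1.42.0, other scalings and filters, a replicate block, covariates and leaving out each library. Leaving out both libraries without Y-linked expression was chosen after seeing the data.

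The members and lists were chosen with earlier results of these data known. Values in each library are given for *Pla2g4e*, for 10 defining astrocyte markers and for members with an unadjusted p-value under 0.05 or without overlap of the groups (and for *Slc6a11*, *Ntsr2* and *Htra1*, chosen after their values were seen). Others are given by mean and fold change. From the other 2 astrocyte lists, genes with an unadjusted p-value under 0.05 and no overlap are named. None with lower values in KO met both conditions, and *S1pr1* and *Hspb1* were added after their values were seen. The motifs were searched in RefSeq promoters of GRCm38.p6.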

Additional observations from a re-analysis of the deposited data

How the results depend on the processing

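With 3 libraries a group the spread between replicates sets what can be resolved, from a standard error of 0.06 for *Slc1a2* to 0.46 for *Gfap* (log2 units), and the library totals of 11792463 to 14594230 fragments limit only the rarest genes. Over 16 alternatives the median log2 fold change of the members ranged from 0.01 to 0.11.

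The genes past the adjusted threshold numbered 0 with 6 libraries, 1 with DESeq2, 21 with the Y-linked covariate, 1 with the striatal marker covariate and 3 without both libraries lacking Y-linked expression, a setting chosen after seeing the data in which *Gfap* alone of the members was among them. They numbered 0 to 1 when single replicates were left out, the 1 arising without WT replicate 2. The members with an unadjusted p-value under 0.05 numbered 5 with the Y-linked covariate and 0 to 7 across the fits that each left out a replicate (0 without KO replicate 1 or WT replicate 2, 1 without WT replicate 3, 5 without the library labelled WT replicate 1 and 7 without KO replicate 2). All had higher values in KO, and the share of all genes with such a p-value and higher values was 4.38% with 6 libraries, 5.95% with the Y-linked covariate and 2.29% to 5.43% across the fits that left out a replicate. Members without overlap numbered 1 to 7 across those fits, and 7 without both libraries lacking Y-linked expression. Fewer libraries overlap less often, and the share of all genes without overlap in either direction was 13% with 6 libraries, 20.4% to 30.9% across those fits and 32.1% with 4 libraries. The cause was not tested.

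Samples of both groups share replicate numbers. Deviations from the group means correlated at 0.23, 0.045 and -0.016 between same-numbered samples, which is no sign of pairing in 2 of 3 numbers. With the replicate block 5 members had an unadjusted p-value under 0.05 with higher values in KO, against 5.25% of all genes, 0 genes passed the adjusted threshold, and the log2 fold change of *Ppp1r3c* was -0.0029.

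Signs of uncalled log2 fold changes turned for several members. *Gfap* was at -0.16 with edgeR's quasi-likelihood test and -0.16 with DESeq2. *Ppp1r3c* was at -0.0021 and -0.0074 with these tools, and *Fgfr3* at -0.00086 with DESeq2. With the Y-linked covariate *Fgfr3* was at -6.6e-05 and *Gli3* at 0.0018. With library totals alone *Gli3* was at 0.02 and *Clu* at 0.00081. With the striatal marker covariate *Sox9* was at -0.14, *Hes5* at -0.09, *Clu* at 0.03, *Slc14a1* at 0.09, *Ppp1r3c* at -0.07, *Bmpr1b* at -0.05 and *Sparcl1* at 0.0093. Without both libraries lacking Y-linked expression *Cldn10* was at -0.08, *Gli3* at 0.09, *Clu* at 5.4e-05, *Cst3* at -0.03 and *Slc14a1* at 0.14.

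When single replicates were left out, the log2 fold change ranged from -0.20 to 1.0 for *Gfap*, -0.04 to 0.34 for *Aqp4*, -0.11 to 0.23 for *Aldh1l1*, -0.0034 to 0.07 for *Slc1a2*, -0.06 to 0.10 for *Gja1*, -0.04 to 0.10 for *Fgfr3*, -0.02 to 0.16 for *S100b*, -0.02 to 0.15 for *Glul*, -0.03 to 0.12 for *Atp1b2*, -0.10 to 0.18 for *Sox9* and -0.08 to 0.08 for *Cldn10*. It ranged from -0.10 to 0.08 for *Gli3*, -0.09 to 0.23 for *Hes5*, -0.04 to 0.08 for *Mlc1*, -0.06 to 0.03 for *Clu*, -0.06 to 0.08 for *Cst3*, -0.0069 to 0.34 for *Htra1*, -0.01 to 0.44 for *Slc6a11*, -0.22 to 0.21 for *Slc14a1*, -0.13 to 0.08 for *Ppp1r3c*, -0.06 to 0.13 for *Bmpr1b* and -0.10 to 0.03 for *Sparcl1*. The causes were not tested. *Slc4a4*, *Acsbg1*, *Plcd4*, *Ntsr2*, *Slc1a3*, *Gjb6*, *Aldoc*, *Slc39a12*, *Ppp1r3g* and *Ndrg2* were above 0 under all 16 alternatives, but several sizes moved by over 1.5 times when 1 replicate was left out. The ranges were 0.16 to 0.41 for *Slc4a4*, 0.13 to 0.31 for *Acsbg1*, 0.24 to 0.43 for *Plcd4*, 0.11 to 0.28 for *Ntsr2*, 0.03 to 0.19 for *Slc1a3*, 0.05 to 0.35 for *Gjb6*, 0.02 to 0.12 for *Aldoc*, 0.03 to 0.11 for *Slc39a12*, 0.02 to 0.36 for *Ppp1r3g* and 0.03 to 0.17 for *Ndrg2*. The lowest value arose without KO replicate 1 for *Slc4a4*, *Acsbg1*, *Plcd4*, *Ntsr2*, *Aldoc* and *Ndrg2*, without WT replicate 2 for *Slc1a3* and *Slc39a12*, and without WT replicate 3 for *Gjb6* and *Ppp1r3g*. The highest arose without KO replicate 2 for *Plcd4*, *Ntsr2*, *Slc1a3*, *Gjb6*, *Aldoc* and *Ndrg2*, and without the library labelled WT replicate 1 for *Slc4a4*, *Acsbg1*, *Slc39a12* and *Ppp1r3g*.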
